A study of Homo sapiens with 18 samples.

Results

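Methylated DNA immunoprecipitation sequencing (MeDIP-seq) was compared between K562 cells silenced with dCas9 and untreated K562 cells, in 3 libraries each. K562 is an established human leukaemia line, and per the labels every library came from K562 cells carrying a B2M:tdTomato transgene, in which the red fluorescent protein tdTomato reports on B2M. The dCas9 cells had received 3 plasmids, each for a different ATR (a designed repressor), with 1 ug of the D3A-based plasmid, the others at a 1:1 molar ratio to it, and 250 ng of a guide RNA plasmid; untreated cells are named so in their titles, although the same treatment text is attached to every sample. The time between treatment and collection, any sorting and whether the line was a single clone were not given in the sources used here. All 198884 regions of the deposited MeDIP table entered the comparison, read from the columns of these 6 libraries, and each library's own peak list was used beside them. The series has 18 samples in all, and the other 12 are 3 MeDIP libraries of TALE-silenced cells, and 9 RNA-seq libraries of the same 3 groups.

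DNA methylation in mammals is mostly added to the cytosine of CG dinucleotides (CpG), by DNMT3A and DNMT3B with the help of DNMT3L, and is copied at each division by DNMT1. CpG-rich promoters of active genes usually lack it, while gene bodies and repeats mostly carry it, and the cancer-derived K562 genome is known for broad losses and local gains. MeDIP captures sheared fragments with an antibody against 5-methylcytosine, so a region's read count rises with the number of methylated cytosines and with the number of copies of that DNA in the sample.

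The regions were short, with a median length of 287 bp (1 to 19299 bp) and a median of 2.81 CpG per 100 bp on the 25 sequences of the GRCh37 (hg19) reference. By place, 9721 lay within 2 kb of the transcript start of a protein-coding gene, 21784 others overlapped an exon, 109275 lay in introns and 57518 outside protein-coding genes, and 586 lay on sequences that were not placed. The 6 libraries held between 2722898 and 4492751 counts in regions, with a median of 8 to 13 counts a region. Pearson correlations of log2 normalised counts averaged 0.784 over the 6 pairs of libraries of the same group and 0.782 over the 9 pairs of different groups, given as a description. In RNA from the same groups, B2M, which codes for the small invariant subunit of MHC class I, fell from 6.45 ± 0.487 to 0.264 ± 0.0688 CPM (a count unit scaled to library size; SD, n = 3 each; log2 difference −4.56, adjusted p = 4.57e-06, edgeR's quasi-likelihood test with Benjamini-Hochberg adjustment). The transgene, listed as a gene of its own, fell from 379 to 16.3 CPM in the mean (log2 difference −4.54 in edgeR). These 2 were among 4 of 13786 genes called (0.029%), all lower, and this count ran from 2 to 89 over the alternatives. All 12 erythroid and K562 marker genes looked up, such as HBG1 and GATA1, were at 10 CPM or more in every RNA library, and 5 of 8 markers of other cell types were under 1 CPM in every one. The labels do not say that replicates came from separate cultures, so p-values measure the spread between these samples, which may be technical.

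The sequence of the B2M promoter is shown first, since it is the only region called between the groups, from the GRCh37 (hg19) plus strand, 5′ to 3′, with CpG in capitals. The stretch is chr15:45003522-45003706, 185 bases with 11 CpG, just upstream of the canonical B2M start.
B2M promoter: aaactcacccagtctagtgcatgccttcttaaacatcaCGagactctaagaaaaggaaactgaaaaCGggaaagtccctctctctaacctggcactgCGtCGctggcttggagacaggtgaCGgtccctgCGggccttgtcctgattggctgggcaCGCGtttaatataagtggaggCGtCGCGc

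Counts at the B2M promoter were 0 in all 3 untreated libraries and 14, 13 and 16 in the dCas9 libraries. The region, chr15:45003405-45003721 (317 bp, 20 CpG, 6.31 CpG per 100 bp), spans 310 bases before and 7 after position 45003715, the start of the canonical B2M transcript, and also covers the start of PATL2, which is transcribed the other way. In CPM, here scaled by TMM to the counts in tested regions, the dCas9 libraries were at 5.53, 3.38 and 6.91 (mean 5.27 ± 1.78, SD, n = 3). All 3 dCas9 libraries were above all 3 untreated libraries. Against a floor of 3 counts over the untreated group (0.34 CPM), the dCas9 level was at least 15.5-fold higher, and at least 11.2-fold at the lower 95% exact Poisson limit of the 43 dCas9 counts, both covering counting error only. The fitted log2 difference was 6.90 (SE 1.26, adjusted p = 0.0438, edgeR's quasi-likelihood test with Benjamini-Hochberg adjustment), and with no untreated count this fitted value is not a measured fold. An exact two-sided permutation test of the 6 CPM values gave p = 0.1, the smallest that 3 against 3 allows.

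This was the only call among 105652 regions that passed the count filter (0.000947%). The filter was set over all MeDIP libraries, TALE included. With no untreated count, the B2M region could pass it only through dCas9 and TALE libraries. The call held with library totals (adjusted p = 0.0446, edgeR's quasi-likelihood test with Benjamini-Hochberg adjustment), without the count filter (0.0112) and without dCas9 replicate 2 (0.0412). It was lost in DESeq2 (adjusted p = 0.103), with the 6 libraries alone (0.068, edgeR), and on leaving out any other single library (edgeR, adjusted p from 0.140 to 0.832), while the fitted log2 difference stayed between 6.36 and 7.11. The fits with the 6 libraries alone or with a library left out kept the same 105652 regions. At the cutoff used, the B2M region would not have passed without TALE replicate 2. A filter set on the 6 libraries alone was not run.

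The methylated DNA captured at the B2M promoter in dCas9 cells was at an ordinary level for the table. Its mean CPM stood at the 39.4th percentile of all tested regions in the dCas9 libraries. A broad peak was listed there in 1 of 3 dCas9 libraries, replicate 3, and in 0 of 3 untreated ones. In the TALE libraries, compared with the same untreated libraries, the counts were 7, 10 and 9 (3.21 ± 0.727 CPM, n = 3). The difference of dCas9 from TALE was 0.70 on the log2 scale (SE 0.63, adjusted p = 1.0, edgeR's quasi-likelihood test with Benjamini-Hochberg adjustment), and the 2 groups overlapped in CPM.

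**Figure D1:**
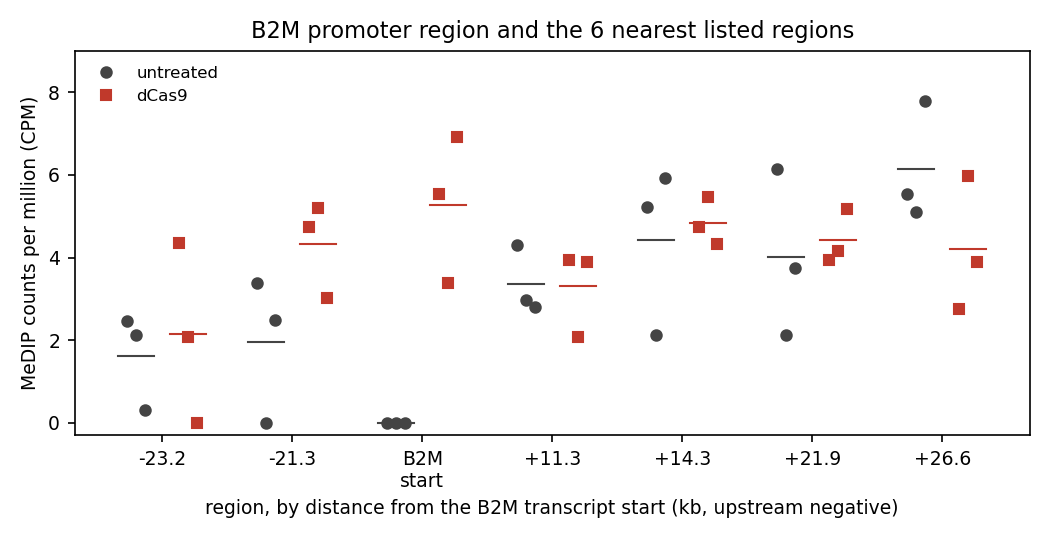
Each point is the MeDIP CPM of 1 library at the B2M promoter region and at the 6 nearest listed regions, placed by distance in kb from the B2M transcript start, with bars at the group means (3 libraries a group). At the promoter the untreated libraries lie at 0 and the dCas9 libraries between 3.38 and 6.91, while at the other 6 regions the groups overlap.

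None of the other listed regions around B2M was called. The nearest one, 11.3 kb downstream and outside genes, was at 4.30, 2.97 and 2.80 CPM in untreated and 3.95, 2.08 and 3.89 CPM in dCas9 libraries. The nearest upstream one, 21.3 kb away in an intron of PATL2, was at 3.38, 0 and 2.49 CPM in untreated and 4.74, 5.19 and 3.02 CPM in dCas9 libraries, with a log2 difference of 1.06 and an unadjusted p of 0.0795 in edgeR. Groups overlapped at both, and at the other 4 of the 6 nearest regions, of which 2 lay in TRIM69, the neighbouring gene downstream. Within 1 Mb on either side, 270 regions were listed and 190 besides the promoter were tested, of which 0 were called. At an unadjusted p under 0.05 in edgeR, 7 were higher and 3 lower, where 4.69% of all tested regions had such a p. Since edgeR called only 0.000947% of all tested regions, 0 calls among the 190 is no result about this stretch. The log2 differences of the 190 ran from −1.28 to 1.42 with a median of −0.07. DESeq2 called 0 regions in the whole table, the B2M promoter included. The spacing sets a limit here: with no listed region nearer than 11.3 kb, methylation between the promoter and that point was not read.

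Regions empty in one group were rare in both directions once a minimum was set. Of 4162 regions with no count in any untreated library, 113 had a count in every dCas9 library and 4 had 5 or more in each. In the other direction, 4127 regions had no dCas9 count, 102 of them had a count in every untreated library, and 0 reached 5 in each. The 4 were the B2M promoter, a region 93.0 kb downstream of the SLC4A3 start, a 272 bp region in an intron of ZNF407 (8, 10 and 5 dCas9 counts) and a 303 bp region 142.9 kb upstream of CCND1 (5, 5 and 6 dCas9 counts). The SLC4A3 one, 491 bp with 26 CpG, had 11, 30 and 7 dCas9 counts and 0, 5 and 7 TALE counts. Against the same floor its dCas9 mean of 5.05 ± 2.46 CPM was at least 14.9-fold higher. It did not pass the count filter, and without that filter it was the second of 2 regions called (log2 difference 6.92, SE 1.18, adjusted p = 0.0459, edgeR's quasi-likelihood test with Benjamini-Hochberg adjustment). These regions were singled out for their zeros after the counts were seen, so the counts are a description.

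Over all tested regions, the dCas9 and untreated profiles were centred on each other. The median log2 difference was 0.00, and 90% of values lay between −0.66 and 0.65. At an unadjusted p under 0.05, edgeR gave 2483 regions higher and 2475 lower, 4958 in all, where 5% of the tested regions would be 5283. The CPM of the 2 groups did not overlap in 5500 regions that were higher and 5412 that were lower, 10.3% of those tested. DESeq2 called 0 regions, with 2618 at an unadjusted p under 0.05. In counts simulated at these depths, the same test recovered 20% of 2-fold, 80% of 4-fold and 100% of 8-fold changes, 50 regions each among 105652. Every simulated region had the same spread and a level from regions past the filter, and 3 unchanged regions were called. In that setting single regions with changes near 2-fold would mostly be missed. A region without untreated counts was not simulated.

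Below the B2M promoter, the 9 higher and 10 lower regions of smallest p among those without overlap between the groups did not pass the test (adjusted p from 0.323 to 0.908, edgeR's quasi-likelihood test with Benjamini-Hochberg adjustment). They are given by values, since they were chosen on this same comparison, the absence of overlap included. PSMB4 codes for a subunit of the proteasome core. A 291 bp region 0.841 kb upstream of its start was at 2.77, 1.27 and 1.56 CPM in untreated and 6.32, 6.49 and 12.1 CPM in dCas9 libraries (log2 difference 2.07, SE 0.48). TMEM225B, a transmembrane protein gene on 7q, had a region 0.608 kb inside its start at 3.07, 1.70 and 3.11 CPM in untreated and 4.74, 7.53 and 13.4 CPM in dCas9 libraries (1.63). In both, every dCas9 library was above every untreated one. An exon region of CERS5, a ceramide synthase gene, had a log2 difference of 1.72, and intron regions of RAP1B, a Ras-like GTPase gene, of PTPRN2, and of CNTNAP2 had 1.67, 0.89 and 0.70. The remaining higher ones lay in introns of NTAN1 and PDXDC1, 5.51 kb downstream of the start of RPL11, a ribosomal protein gene, and 2.86 kb upstream of CNBP. Of the 10 higher regions, 3 lay at gene starts, 1 in an exon, 4 in introns and 2 outside genes, with a median of 3.29 CpG per 100 bp.

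Of the 10 lower regions, 7 lay in introns and 3 outside genes, with a median of 2.20 CpG per 100 bp. Among all 105652 tested regions, 6051 lay at gene starts, 13264 in exons, 62005 in introns and 24161 outside genes, and nothing is read from the places of these few regions, which were chosen on this comparison. PTPRS codes for a receptor tyrosine phosphatase. An 895 bp region in its intron, chr19:5167221-5168115, was at 12.6, 10.2 and 9.97 CPM in untreated and 3.56, 2.34 and 3.02 CPM in dCas9 libraries (log2 difference −1.90, SE 0.39, adjusted p = 0.323 in edgeR's quasi-likelihood test with Benjamini-Hochberg adjustment). A 335 bp region in an intron of CNST was at 11.4, 15.3 and 12.5 CPM in untreated and 5.53, 4.41 and 3.89 CPM in dCas9 libraries (−1.48), with a peak in every untreated and no dCas9 library. The groups did not overlap at either. The largest fitted decrease of the 10, −2.37, was in an intron of PSMA6, another proteasome subunit gene, at 4.92, 4.67 and 7.79 CPM against 0, 2.34 and 0.432 CPM. The others lay in introns of CMTR1, VCPIP1, IPO11 and ACACA and near SURF6, CALML3 and RRAGC. RNA of 13 genes that these regions lie in or at could be tested, and B2M was the only one called. PSMA6 had the largest RNA log2 difference of the other 12, −0.51 (adjusted p = 0.738), and PTPRS had 0.28 (0.833) in edgeR's quasi-likelihood test with Benjamini-Hochberg adjustment. The RNA log2 differences were −0.13 for PSMB4, −0.11 for NTAN1, −0.03 for PDXDC1, 0.10 for RAP1B and −0.05 for CERS5 beside the higher regions. Beside the lower ones they were −0.22 for CNST, 0.05 for CMTR1, −0.11 for VCPIP1, −0.16 for ACACA and 0.00 for IPO11. Against the same untreated libraries, TALE log2 differences were 0.81 at PSMB4, 1.04 at TMEM225B, −1.21 at PTPRS, −0.59 at CNST and −0.29 at PSMA6.

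None of the regions of highest CPM or greatest length was called. CPM is not scaled for the length of a region or its number of copies. The longest, 19299 bp on a sequence that is not placed (chrUn_gl000220), was at 5086, 5035 and 5146 CPM in untreated and 5033, 5044 and 5171 CPM in dCas9 libraries. The second of that sequence among the highest was at 1749 against 1790 CPM in the mean. A 16056 bp region on chromosome 1, 8.28 kb upstream of NBPF1, was at 759 CPM in untreated and 741 CPM in dCas9 libraries in the mean. Over all 7 such regions the log2 differences ran from −0.17 to 0.21.

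At gene starts, B2M and PATL2 were the only genes called. Of 20149 protein-coding genes, 8791 (43.6%) had a listed region within 2 kb of a transcript start, 6203 had counts enough to test, and 2 were called (0.0322%), both through the single region described above. Their shared window gave a log2 difference of 6.90 (SE 1.10, adjusted p = 0.000461, edgeR's quasi-likelihood test with Benjamini-Hochberg adjustment). Both calls held under every alternative that kept the window, DESeq2 and each left-out library included. The window holds the same counts as the single region, adjusted over fewer features, so it gives no separate support. Like that region, it could pass the count filter only through dCas9 and TALE libraries. At an unadjusted p under 0.05, 154 windows were higher and 159 lower. Next on the higher side by p was TMEM225B, through the region described above (log2 difference 1.63, adjusted p = 0.324 in edgeR). THEMIS2, a gene of lymphocyte and macrophage signalling, was at 19.7, 19.1 and 20.2 CPM in untreated and 36.4, 27.0 and 32.4 CPM in dCas9 libraries (log2 difference 0.68, adjusted p = 0.324 in edgeR). PRKRA and PJVK, which share a start region, had 0.76, and CD300H, a receptor gene, had 0.81. On the lower side F8A1, which lies in an intron of the factor VIII gene, was at 25.2, 28.4 and 21.2 CPM in untreated and 10.3, 17.1 and 13.4 CPM in dCas9 libraries (−0.83, adjusted p = 0.324 in edgeR). NET1 had −1.27, LCN12 had −1.32, PNMT had −1.23, ZNF284 had −1.29, and NME1 with the read-through NME1-NME2 had −0.68. F8A1 has near-identical copies on the X chromosome, so its counts may be shared between them. None of these other genes was called.

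Of the other genes lower in RNA, GBP5, an interferon-induced GTPase gene (17.9 to 6.97 CPM in RNA), had a gene-start MeDIP level of 3.99, 5.94 and 3.74 CPM in untreated and 2.77, 2.86 and 1.73 CPM in dCas9 libraries. The dCas9 libraries lay below the untreated ones there, with a log2 difference of −0.83 (SE 0.53, adjusted p = 0.96, edgeR's quasi-likelihood test with Benjamini-Hochberg adjustment). Over all tested gene-start windows, 10.9% were without overlap. TC2N (17.2 to 8.03 CPM in RNA) had no listed region at its start.

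Gene lists showed no called member other than PATL2. The lists below were chosen with earlier results of these data known, and their medians stand beside a median of 0.00 over all 6203 windows tested. Of those windows, 5.05% had an unadjusted p under 0.05 in edgeR, so 0 among a few members is no result about them. Of 17 genes around B2M on chromosome 15, 7 had a tested start: PATL2 was called, and SPG11, SORD, DUOX2, DUOXA2, EIF3J and BLOC1S6 had log2 differences from −0.27 to 0.58, with a median of 0.48 over the 7. Of 17 genes of MHC class I and peptide loading, which act with B2M at the cell surface or supply its peptides, 8 were tested, with 0 higher and 0 lower at an unadjusted p under 0.05 in edgeR and a median of −0.10. HLA-E, a class I heavy chain, was at 43.3, 53.5 and 61.4 CPM in untreated and 40.3, 58.7 and 50.9 CPM in dCas9 libraries. TAP1, a subunit of the peptide transporter, was at 8.91, 13.2 and 11.8 CPM against 9.88, 8.57 and 1.73 CPM (log2 difference −0.68, unadjusted p = 0.0512 in edgeR), with the groups overlapping. PDIA3, a chaperone of the loading complex, had −0.73, and HLA-F had 0.29. HLA-G, named after its values were seen, had too few counts to test, with 0, 2 and 2 in untreated and 5, 11 and 6 in dCas9 libraries.

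Of 15 genes of DNA methylation and KRAB repression, 8 were tested, none of them a DNMT gene, so the enzymes that add methylation were not tested. Of the 8, 0 passed an unadjusted p of 0.05 in edgeR, where 5.05% of all tested windows did, and the median log2 difference was −0.18. TET1 and TET3, which oxidise 5-methylcytosine, had 0.39 and 0.24, TET2 had −0.20, and MBD2, a methyl-CpG binding protein gene, had −0.43. TRIM28 and SETDB1, which act with KRAB zinc finger proteins, had −0.34 and 0.16, and ZNF10, a KRAB zinc finger gene, had −0.36. Of 19 imprinted genes, whose methylation differs between parental alleles, 4 were tested, with log2 differences of −0.24 (DLK1), −0.14 (NNAT), 0.11 (NAP1L5) and 0.34 (PEG10). Of 18 germline genes, which are methylated in most somatic cells, 3 were tested: SYCP3 was at 35.3 against 33.4 CPM in the mean (−0.07), SYCP1 had 0.85 and HORMAD1 0.50. Of 12 housekeeping genes 6 were tested, from −0.38 (ACTB) to 0.09 (EEF1A1), with a median of −0.08. In the last 3 lists 0 members passed an unadjusted p of 0.05 in edgeR.

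By length, place and CpG density the 2 groups overlapped in every class. Over 14 classes of region, the share of a library's counts differed by at most 0.352 percentage points between group means, and 0 classes (0%) were without overlap. Regions under 300 bp held 37.1, 36.5 and 37.1% of counts in untreated and 36.3, 36.8 and 36.6% in dCas9 libraries. Gene-start regions held 6.53 ± 0.0546% in untreated and 6.57% in dCas9 libraries on average. The regions richest in CpG, over 3.81 CpG per 100 bp, held 24.1 ± 0.446% in untreated and 23.8% in dCas9 libraries. The smallest exact two-sided permutation p of the 14 was 0.2 (0.7 after Benjamini-Hochberg adjustment), where 3 against 3 allows 0.1. Without untreated replicate 2, the lowest of the untreated libraries in CpG-rich regions, 7 of the 14 classes no longer overlapped. The share of regions at an unadjusted p under 0.05 in edgeR ran from 4.19 to 5.41% over the classes.

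Repeats take up much of the table. The 16-base word held by the most regions, attctcctgcctcagc or gctgaggcaggagaat on the other strand, is part of the Alu element, the most numerous repeat of the human genome. It was searched on both strands, leaving out words with fewer than 2 of any of the 4 bases, and 59315 of 198298 regions (29.9%) held it exactly. Regions with the word held 43.5 ± 0.19% of counts in untreated and 43.4 ± 0.157% in dCas9 libraries, an exact two-sided permutation p of 0.7. Of the 10 higher regions of smallest p 2 held it, as did 6 of the 10 lower ones and the region near SLC4A3, and the B2M promoter did not. These are exact matches only, so they do not count all regions made of repeats. The higher regions in RAP1B and near CNBP hold the word with a single base changed, as do the lower ones in CMTR1 and near SURF6. Those in PTPRN2 and CNTNAP2 consist largely of short repeated units. Reads from such repeats can be shared between copies, so single-region values there are uncertain.

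Larger stretches of DNA differed by small amounts that single regions did not show. Summed over whole chromosomes, 2 of 26 were called (7.69%): chromosome 7 held 6.53, 6.49 and 6.49% of counts in untreated and 6.74, 6.76 and 6.69% in dCas9 libraries, and chromosome 12 held 4.39, 4.35 and 4.38% against 4.45, 4.47 and 4.46%. Every dCas9 library was above every untreated library on both. In CPM the groups did not overlap on 19.2% of the 26, among them chromosomes 3, 19 and 20, which were not called. The log2 differences were 0.05 (SE 0.0036, adjusted p = 6.1e-05) and 0.03 (SE 0.0044, adjusted p = 0.00443), from edgeR's quasi-likelihood test with Benjamini-Hochberg adjustment. Chromosome 15, which carries B2M, had −0.02 (adjusted p = 0.141 in edgeR). For chromosomes 5, 6 and 22 the test returned no usable SE, and they count here as not called.

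The chromosome 7 difference lay in its long arm. Counts were summed by chromosome arm after the chromosome values had been seen, and 3 of 41 arms were called (7.32%). For some arms, among them 10p, 18q and 22q, the test returned no usable SE, and they count here as not called. The long arm 7q held 4.68, 4.64 and 4.64% of counts in untreated and 4.89, 4.92 and 4.84% in dCas9 libraries, a rise of 4.97% (log2 difference 0.07, SE 0.0054, adjusted p = 4.92e-10 in edgeR's quasi-likelihood test with Benjamini-Hochberg adjustment), while the short arm 7p was at 1.85% in both groups on average. The long arm 12q rose by 2.75% (log2 difference 0.04, SE 0.0058, adjusted p = 1.4e-05 in edgeR). The long arm 19q, which is dense in genes and zinc finger clusters, held 3.25, 3.28 and 3.24% in untreated and 3.13, 3.06 and 3.12% in dCas9 libraries, and fell by 4.64% (log2 difference −0.07, SE 0.0091, adjusted p = 3.5e-06 in edgeR). The other 38 arms had log2 differences from −0.02 to 0.03. Against the same untreated libraries the TALE libraries had log2 differences of 0.05 on 7q, 0.03 on 12q and −0.06 on 19q. Between dCas9 and TALE 0 arms were called. On 7q dCas9 was higher than TALE by 0.015 on the log2 scale, just short of a call (SE 0.0042, adjusted p = 0.0539 in edgeR).

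In 10 Mb windows, also added after the chromosome values had been seen, 20 of 313 were called (6.39%), 9 higher and 11 lower. All 9 higher ones lay on chromosomes 7 and 12. On chromosome 12 they were the 3 windows from 40 to 70 Mb, with log2 differences of 0.12, 0.11 and 0.14, and the middle one held 0.588% of counts in untreated and 0.635% in dCas9 libraries on average (adjusted p = 1.29e-10 in edgeR's quasi-likelihood test with Benjamini-Hochberg adjustment). The 6 on chromosome 7 all lay on the long arm, from 60 Mb on, with log2 differences from 0.07 to 0.10. Of the lower ones, 3 were the windows of 19q from 30 to 60 Mb (−0.06 to −0.07), and the furthest down were on chromosome 4 from 130 to 140 Mb (−0.17), chromosome 21 from 20 to 30 Mb (−0.16) and chromosome 1 from 190 to 200 Mb (−0.16). The window that holds B2M, 40 to 50 Mb of chromosome 15, had −0.03 (adjusted p = 0.0233 in edgeR), a call that DESeq2 did not make and that was lost without dCas9 replicate 2, untreated replicate 1 or untreated replicate 3 (edgeR, adjusted p from 0.132 to 0.634).

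At 1 Mb, 48 of 2459 windows were called (1.95%), 22 higher and 26 lower, and 284 were at an unadjusted p under 0.05 in edgeR. Chromosome 7 held 13 of the higher ones and chromosome 12 held 6, while 6 of the lower ones lay on chromosome 19. The first of all, 50 to 51 Mb of chromosome 12, holds the aquaporin genes AQP2, AQP5 and AQP6 and CERS5, and was at 1137, 1140 and 1157 CPM in untreated and 1299, 1296 and 1285 CPM in dCas9 libraries (log2 difference 0.18, SE 0.0276, adjusted p = 1.56e-05 in edgeR's quasi-likelihood test with Benjamini-Hochberg adjustment). The groups did not overlap there, as in 15.45% of all tested 1 Mb windows. The lower window of smallest p, 190 to 191 Mb of chromosome 1, has 1 protein-coding gene, BRINP3, and was at 159, 155 and 157 CPM in untreated and 103, 106 and 121 CPM in dCas9 libraries (−0.53, SE 0.0869, adjusted p = 3.57e-05 in edgeR). The next lower ones, 21 to 22 Mb of chromosome 21 and 38 to 39 Mb of chromosome 11, have no protein-coding gene and had −0.45 and −0.50. Higher windows held a median of 151 regions and 9.5 protein-coding genes, lower ones 67 and 3, and all tested windows 70 and 5. The count depended on the method: DESeq2 called 21, limma on log2 CPM called 0 (240 at an unadjusted p under 0.05), and leaving out a single library gave 17 to 30.

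At 100 kb, 3 of 13863 windows were called (0.0216%). The window from 179.4 to 179.5 Mb of chromosome 5, in RNF130, a ubiquitin ligase gene, was at 40.9, 41.6 and 48.3 CPM in untreated and 75.5, 67.5 and 65.2 CPM in dCas9 libraries (log2 difference 0.67, SE 0.13, adjusted p = 0.0104 in edgeR's quasi-likelihood test with Benjamini-Hochberg adjustment). The window from 144.6 to 144.7 Mb of chromosome 6, in UTRN, the gene of the dystrophin relative utrophin, was at 47.3, 51.8 and 43.3 CPM in untreated and 27.3, 27.0 and 30.7 CPM in dCas9 libraries (−0.75, SE 0.16, adjusted p = 0.0385 in edgeR). The third, at 50.5 to 50.6 Mb of chromosome 12, holds CERS5, COX14, GPD1 and LIMA1 and had 0.29 (adjusted p = 0.0385 in edgeR). Groups did not overlap in any of the 3, nor in 12.2% of all tested 100 kb windows.

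Within the long stretches the difference was spread thinly over regions of every kind. On 7q, 59.2% of 4695 tested regions had a log2 difference above 0, with a median of 0.07, against 49.4% on 7p and 50.1% of all tested regions, and 0 single regions were called there. From 40 to 70 Mb of chromosome 12 it was 62.5% of 1321 regions (median 0.11), against 50.3% on the rest of that chromosome, and on 19q it was 40.5% of 3065 regions (median −0.07), against 51.4% on 19p. Split into 12 classes by length, place and CpG density, the summed counts were above the untreated mean in 12 of 12 classes on 7q (log2 ratios 0.05 to 0.11) and on the chromosome 12 stretch (0.08 to 0.15), and in 0 of 12 on 19q (−0.11 to −0.05). The stretches were chosen on this comparison, so these counts are a description.

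RNA medians of the same stretches lay on the same side of 0 as the MeDIP medians. The median log2 difference in RNA was 0.08 over 313 tested genes of 7q (70.3% above 0), 0.13 over 186 genes of the chromosome 12 stretch (72.6%) and −0.08 over 457 genes of 19q (35.0%). On 7p, the rest of chromosome 12 and 19p the RNA medians were −0.00, −0.01 and 0.03, and over all 13786 tested genes 49.3% were above 0. Genes above 0 made up 60.9% of 368 on 19p and 48.5% of 361 on the rest of chromosome 12. On 7p as many genes lay above 0 as not. RNA thus leaned to one side on 19p too, where only 51.4% of tested MeDIP regions were above 0. No RNA gene of the 3 stretches was called, and the share of RNA counts in each stretch overlapped between the groups. On 7q it was 2.17, 1.99 and 1.95% in untreated and 2.15, 2.13 and 2.16% in dCas9 libraries. On the chromosome 12 stretch it was 1.38, 1.23 and 1.20% against 1.42, 1.36 and 1.43%. On 19q it was 3.64, 3.63 and 3.70% against 3.71, 3.06 and 3.61%, where dCas9 replicate 1 was the highest and dCas9 replicate 2 the lowest of the 6. MeDIP counts rise with methylation and with the amount of DNA alike. These cannot be told apart here, since no DNA library made without capture is among the samples of the series.

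The numbers of peaks overlapped between the groups. The authors listed 111552, 94344 and 111933 broad peaks in the untreated and 97205, 120603 and 93622 in the dCas9 libraries. Peak numbers went with depth: dCas9 replicate 2 had the most counts and peaks of the 6, and dCas9 replicate 3 the fewest of both. Of the listed peaks, 17.4 to 24.3% a library had a −log10 q under 1. The groups overlapped, with a difference of −2133 in the mean (exact two-sided permutation p = 0.9, n = 3 each), and the sign of that difference turned when untreated replicate 1 or 3 or dCas9 replicate 1 or 3 was left out. Median peak lengths were 632 to 699 bp and median fold enrichments, as the authors' caller gave them, 2.38 to 2.43. Of all regions, 58380 overlapped a peak in all 6 libraries and 11137 in none of the 6.

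Regions with a peak in every dCas9 and no untreated library numbered 935 (0.47%), and the reverse 988 (0.497%). Of the 935, 46 lay at gene starts, 95 in exons, 513 in introns and 276 outside genes, 344 were tested and 0 were called by edgeR, with 143 at an unadjusted p under 0.05. Peaks were called on these same reads, so the p-values are no independent measure. The smallest p among them belonged to intron regions of IQSEC1 and ANKRD11, a chromatin regulator gene, and a region 28.2 kb from SOCS3, a cytokine signal inhibitor gene. The ANKRD11 one was at 4.92, 0.849 and 4.36 CPM in untreated and 8.30, 9.61 and 11.2 CPM in dCas9 libraries. Among the 988, after CNST and PSMA6, an intron region of GLG1 was at 4.30, 7.22 and 8.41 CPM in untreated and 2.37, 1.82 and 1.30 CPM in dCas9 libraries, and one of DDX20 had a log2 difference of −2.52. The groups did not overlap at any of these, and of the 374 tested among the 988, edgeR called 0, with 135 at an unadjusted p under 0.05. With only peaks of a −log10 q of 5 or more, the 2 numbers were 150 and 213.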

How the data were processed

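Per the labels' protocols, sonicated DNA was made into libraries, pooled after adapter ligation and captured with a 5-methylcytosine antibody. Per the submitters' processing notes, BWA 0.7.5, Picard, MACS2, bedtools and, for RNA, STAR 2.3.0 were used with hg19, in an order that was not given. The authors deposited raw counts per region and per gene for all libraries in 1 table each, with no normalization. The authors deposited broad peaks called per sample, each with a score, a fold enrichment (ratio) and p and q as −log10 values.

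Regions with too few counts were dropped (filterByExpr in edgeR 4.0.16, minimum 10), which left 105652 of 198884. The 9 MeDIP libraries were TMM-scaled and fitted together with 1 mean per group, and dCas9 was tested against untreated by edgeR's quasi-likelihood test with Benjamini-Hochberg adjustment at 0.05. The same test ran on counts summed over windows within 2 kb of gene starts, over 100 kb, 1 Mb and 10 Mb windows, arms and chromosomes, and on the RNA counts. Places came from GENCODE 44 on GRCh37. Shares and peak numbers were compared by exact two-sided permutation tests. DESeq2 1.42.0, limma 3.58.1, other filters and scalings, a replicate block and leaving out each library were the alternatives. The script was tested on simulated data.

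Named were the 10 regions of smallest p in each direction on the main chromosomes, among those whose groups did not overlap in CPM, the 5 gene starts and 3 windows of 1 Mb of smallest p in each direction, the 5 highest and 5 longest regions, and up to 5 regions a direction with peaks in 1 group only and an unadjusted p under 0.01. The members and lists were chosen with earlier results of these data known, and the arms, 10 Mb windows and sequence word were added after the data were seen. Gene places were not given for the mitochondrial region.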

Additional observations from a re-analysis of the deposited data

Results flagged for a closer look

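The B2M promoter region also held counts in the 3 TALE libraries. They shared the count filter, scaling and fit, but were on neither side of the comparison of dCas9 with untreated cells. Their mean was 3.21 CPM (SD 0.727, n = 3), where the untreated libraries that serve as controls had no count.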

How the results depend on the processing

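Counts of calls moved with the settings, and no named item changed direction. DESeq2 called 0 regions, 21 windows of 1 Mb and 27 RNA genes, and limma called 0 windows of 1 Mb. A minimum of 10 counts in every library removed the B2M region and left 0 regions and 0 gene-start windows called. No filter gave 2 regions and 89 RNA genes, and the 6 libraries alone gave 0 regions. Library totals, or only chromosomes 1 to 22 and X, gave 4 chromosomes. Windows of 100 kb gave 3 calls and of 10 Mb gave 20. Leaving out 1 library at a time gave 0 to 2 regions, 17 to 30 windows of 1 Mb, 16 to 25 of 10 Mb, 2 to 4 chromosomes, 3 to 5 arms, 2 to 8 RNA genes and 0 to 7 classes without overlap. The B2M log2 difference was 6.36 in DESeq2, 6.93 with the 6 libraries alone and 6.70 to 7.11 without 1 library, and its call was lost in most of these. The difference in peak number ran from −10530 to 2961 without 1 library, and it turned positive when untreated replicate 1 (671.5), untreated replicate 3 (862.0), dCas9 replicate 1 (1170) or dCas9 replicate 3 (2961) was dropped. Stricter peaks left 150 regions of dCas9 only and 213 of untreated only. Among values of single items, 674 kept direction and side of the threshold, 38 lost the call, 5 gained it and 2 moved. The causes were not tested. Depth limits single regions, with a median of 8 to 13 counts.

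Replicate numbers did not pair the libraries: correlations of deviations between same-numbered libraries were from −0.00465 to 0.00262. With the replicate block, 0 regions, 2 gene-start windows, 37 windows of 1 Mb, 19 of 10 Mb, 4 arms, 2 chromosomes and 2 RNA genes were called, and the B2M log2 difference was 6.91 (adjusted p = 0.0851 in edgeR).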

Other observations

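Mitochondrial DNA varied widely between libraries of the same group. The 16266 bp region was at 953, 3190 and 1809 CPM in untreated and 2142, 1818 and 2933 CPM in dCas9 libraries, with a log2 difference of 0.21 (SE 0.119). Untreated replicate 1 was the lowest and untreated replicate 2 the highest of the 6. Without untreated replicate 2 the region was called higher in dCas9 (log2 difference 0.73, SE 0.0898, adjusted p = 2.16e-07, edgeR's quasi-likelihood test with Benjamini-Hochberg adjustment).

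An intron region of STARD9 on chromosome 15, chr15:42948436-42948819, had counts of 5, 11 and 10 in untreated and 30, 15 and 39 in dCas9 libraries. It was at 1.54, 4.67 and 3.11 CPM against 11.9, 3.90 and 16.8 CPM, so the groups overlapped through dCas9 replicate 2. Its log2 difference was 1.78 (adjusted p = 0.770 in edgeR), and without that library it was 2.24 (adjusted p = 0.0412 in edgeR).

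A window of clustered zinc finger genes, among them ZNF253 and ZNF486, at 20 to 21 Mb of chromosome 19, was the 1 called 1 Mb window of that chromosome that was higher. It was at 52.5, 38.2 and 41.4 CPM in untreated and 55.7, 71.9 and 66.9 CPM in dCas9 libraries (log2 difference 0.56). The groups did not overlap, and the log2 difference of TALE from the same untreated libraries was 0.53.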
